A study of Homo sapiens with 9 samples.

Results

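DNA replication copies the genome once per cell cycle, and 48 genes of its origin and fork machinery were followed here in the human melanoma line A375. The genes were taken by symbol from a fixed list of 48, out of 37118 genes in the deposited expression table, and all 48 were found. The cells are labelled wild type and differ only in metformin, a biguanide diabetes drug, given at 0, 20 or 40 mM with 3 libraries per dose and 9 in all. The sources used here do not give the length of treatment, and no label says that the 3 libraries of a dose came from separate cultures, so p-values measure only the spread between these libraries. The line grows as 1 cell type, and bulk RNA cannot tell fewer cells in S phase apart from less RNA per cell.

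In G1, the origin recognition complex (ORC) with CDC6 and CDT1 loads the MCM2-7 ring onto DNA, a step called licensing that geminin (GMNN) blocks by binding CDT1. In S phase the kinase CDC7 with its activator DBF4 turns the loaded rings into CMG helicases, made of CDC45, MCM2-7 and the GINS complex, and MCM10 helps them start. Primase with DNA polymerase alpha lays down primers, polymerases epsilon and delta extend them on the sliding clamp PCNA, which replication factor C (RFC) loads, and FEN1 and the ligase LIG1 join the fragments. Many of these genes are textbook targets of E2F transcription factors, which switch on S phase genes at the end of G1.

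The promoters of 6 members are shown first, because they hold the DNA next to the largest and the smallest changes described below. They belong to the 4 members whose transcripts fell most at 40 mM (LIG1, ORC3, POLA2 and GINS2) among those with a single promoter entry. The other 2 are those of them whose transcripts moved least (RFC1 and GINS3). The place of POLA2 rests on its own counts (-0.97) and is uncertain, since summed with those of an overlapping gene they gave -0.28. The sequences are from RefSeq on build GRCh38.p14, read 5′ to 3′ on the gene's strand from 250 bases before the annotated start to 10 bases after it. Capitals mark matches to an E2F site or to the NF-Y box CCAAT. The windows are chr19:48170335-48170594 (minus strand) for LIG1, chr6:87589885-87590144 (plus) for ORC3, chr11:65261712-65261971 (plus) for POLA2, chr16:85688945-85689204 (minus) for GINS2, chr4:39366353-39366612 (minus) for RFC1 and chr16:58392221-58392480 (plus) for GINS3.
LIG1: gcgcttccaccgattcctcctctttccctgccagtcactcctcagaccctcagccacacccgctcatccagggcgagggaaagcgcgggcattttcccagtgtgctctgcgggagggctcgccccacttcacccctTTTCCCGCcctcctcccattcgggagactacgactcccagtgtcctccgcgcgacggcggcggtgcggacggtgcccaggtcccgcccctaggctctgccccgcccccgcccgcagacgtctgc
ORC3: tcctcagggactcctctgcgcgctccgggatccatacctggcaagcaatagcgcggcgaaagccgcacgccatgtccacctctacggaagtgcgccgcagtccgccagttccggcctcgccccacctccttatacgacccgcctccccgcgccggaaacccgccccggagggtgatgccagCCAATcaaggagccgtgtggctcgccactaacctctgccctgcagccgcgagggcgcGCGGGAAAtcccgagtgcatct
POLA2: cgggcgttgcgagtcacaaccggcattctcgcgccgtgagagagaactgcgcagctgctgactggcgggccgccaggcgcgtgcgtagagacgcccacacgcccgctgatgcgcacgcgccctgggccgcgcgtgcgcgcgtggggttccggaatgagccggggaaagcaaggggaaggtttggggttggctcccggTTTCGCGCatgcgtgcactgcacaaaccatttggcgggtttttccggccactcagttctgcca
GINS2: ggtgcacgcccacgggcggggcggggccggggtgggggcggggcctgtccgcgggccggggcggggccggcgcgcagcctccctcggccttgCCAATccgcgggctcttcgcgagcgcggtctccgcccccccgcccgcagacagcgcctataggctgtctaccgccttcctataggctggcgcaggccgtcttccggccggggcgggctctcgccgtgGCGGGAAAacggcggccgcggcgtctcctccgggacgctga
RFC1: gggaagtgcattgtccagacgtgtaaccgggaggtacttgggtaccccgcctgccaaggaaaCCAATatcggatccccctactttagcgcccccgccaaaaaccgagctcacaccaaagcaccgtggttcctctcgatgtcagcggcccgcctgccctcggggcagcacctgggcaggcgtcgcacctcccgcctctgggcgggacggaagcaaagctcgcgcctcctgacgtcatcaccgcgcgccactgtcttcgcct
GINS3: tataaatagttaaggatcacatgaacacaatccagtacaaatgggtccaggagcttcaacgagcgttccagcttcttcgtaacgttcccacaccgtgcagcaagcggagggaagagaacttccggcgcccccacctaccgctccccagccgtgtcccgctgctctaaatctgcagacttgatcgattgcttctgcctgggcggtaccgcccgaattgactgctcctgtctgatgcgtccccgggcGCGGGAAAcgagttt
Counted from the start, with no position 0, the E2F match lies at -114 to -107 in LIG1, -12 to -5 in ORC3, -53 to -46 in POLA2 and -31 to -24 in GINS2. In GINS3 it spans the RefSeq start, from -5 to 3, and RFC1 holds a CCAAT box at -188 to -184 and no E2F match. The GINS3 window lies inside that gene as listed in the expression data (58295080 to 58406147 on the plus strand), away from its listed start. A match is a run of letters and no proof of binding.

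Depth was even, at 65738242 to 75629413 counts per library, and the lowest count of any member in any library was 391. Replicate 3 of 40 mM stood apart: on a principal component holding 12.5% of the variance it was at 0.20, against -0.16 and -0.14 for replicates 1 and 2, and its share of mitochondrially encoded counts was 4.36%, against 3.01% and 3.27%. Calls of replication genes that change without it are given below. Of 11 melanocyte and melanoma markers, 6 had a mean of at least 1 FPKM (a fragment level scaled to transcript length and library depth), led by SOX10 at 70.7 to 114 FPKM, while the pigment genes TYR, PMEL, MLANA and DCT stayed below 1. Of 11 markers of other cell types only CD68 (3.64 to 22.2 FPKM) and KRT14 (6.02 to 8.98 FPKM) reached a mean of 1. PTPRC, CD3E, COL1A2 and ALB were at or near 0. Summed FPKM of that second list ran from 10.9 to 12.6 at 0 mM, 17.5 to 20.4 at 20 mM and 24.4 to 32.2 at 40 mM, a movement mostly of CD68 whose part in the results was not tested.

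Most replication genes fell at 40 mM and many already at 20 mM. At 20 against 0 mM, 24 of the 48 members fell and 1, ORC2, rose, where 15.2% of all 12394 tested genes were called lower and 16.3% higher. At 40 against 0 mM, 39 of 48 fell and 2, ORC6 and DBF4, rose, against a background of 27.4% lower and 28.8% higher. The median log2 fold change of the members was -0.17 at 20 mM and -0.40 at 40 mM, against 0.00 over all tested genes in both comparisons. From 20 to 40 mM, 29 members fell and 0 rose (background 15.1% lower and 14.3% higher), with a median of -0.22. A gene was called, and is said to have risen or fallen, at a Benjamini-Hochberg adjusted p under 0.05 by edgeR's quasi-likelihood test over all tested genes; changes below are log2 fold changes ± SE from that test. Without replicate 3 of 40 mM the members called lower numbered 26, 39 and 28 in the 3 comparisons and those called higher 3, 4 and 0. ORC6 and RFC4 were then also called higher, and FEN1 and POLD3 lower, at 20 mM, ORC2 and RFC4 higher at 40 mM, and ORC5 was no longer called from 20 to 40 mM. The comparisons with 0 mM share the 0 mM libraries and are not independent of each other.

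**Figure D1:**
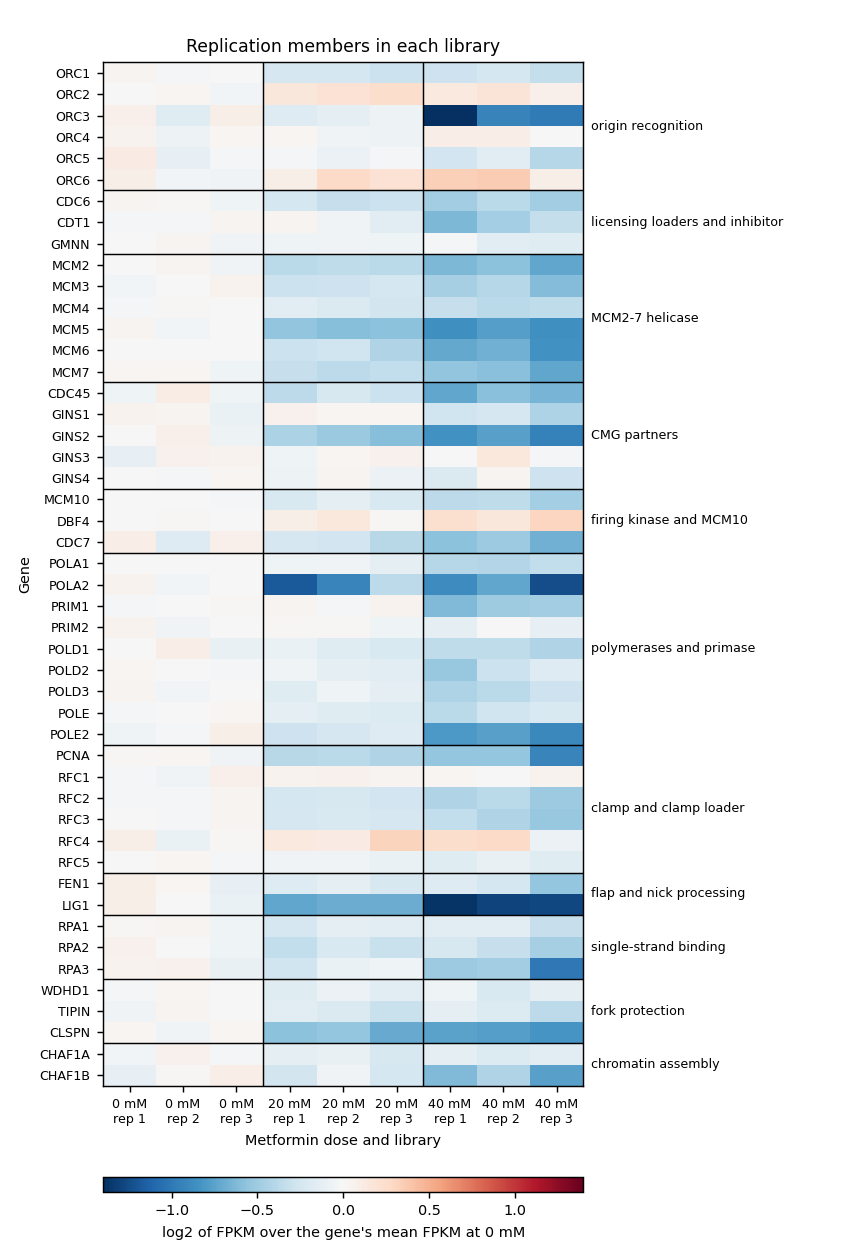
Each row is a replication gene and each column a library; colour is the log2 of its FPKM over the gene's mean FPKM at 0 mM, blue for lower and red for higher, with genes grouped by role. Most rows turn blue from 20 to 40 mM, while ORC2, ORC6 and DBF4 turn light red. RFC4, not called with all 9 libraries, does so except in replicate 3 of 40 mM.

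**Figure D2:**
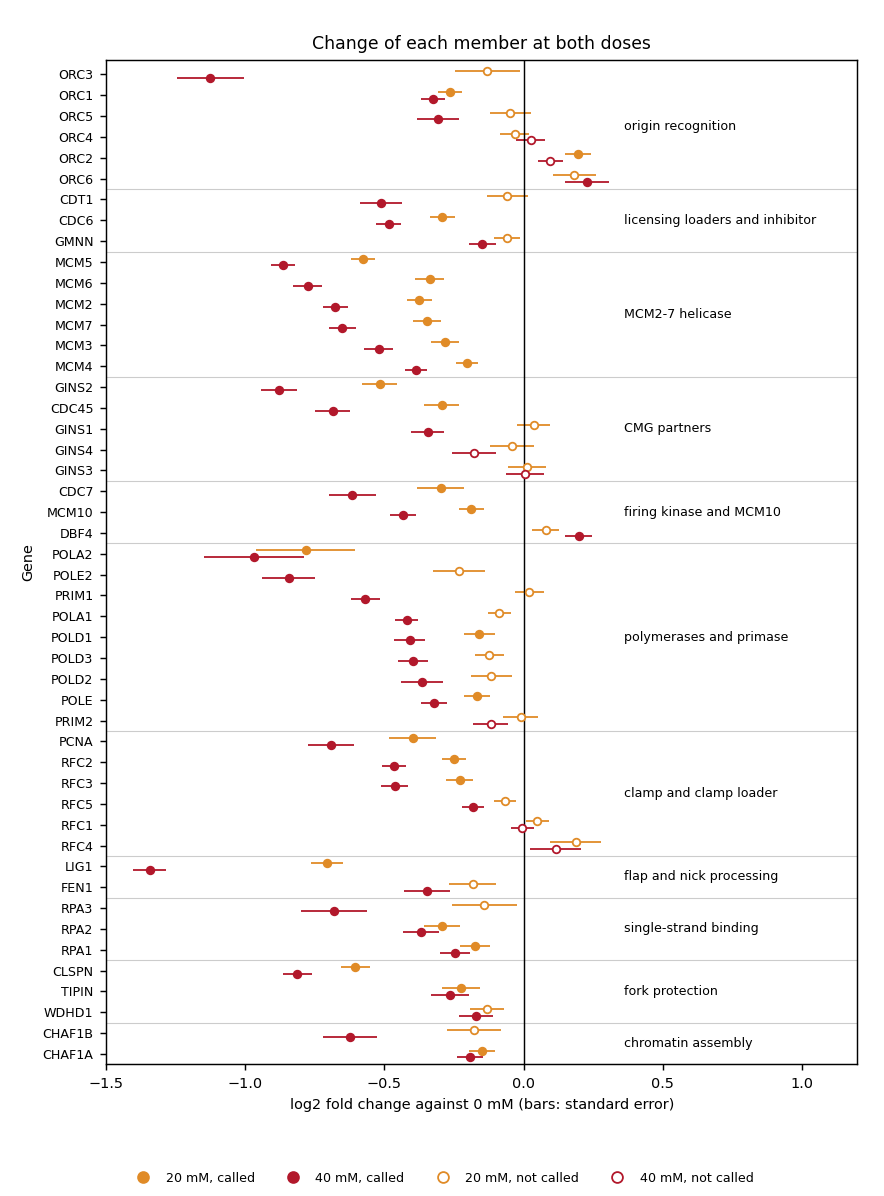
Points are log2 fold changes against 0 mM at 20 mM (orange) and 40 mM (red) with bars of 1 SE; filled points passed the test and open points did not. At 40 mM 39 genes have filled points left of 0, from LIG1 at -1.34 to GMNN at -0.15.

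The 4 main steps differed in how much of each was called lower, in short lists whose differences were not tested. Of all tested genes, 15.2% were called lower and 16.3% higher at 20 mM, and 27.4% and 28.8% at 40 mM. Of the 9 licensing genes (ORC1 to ORC6, CDC6, CDT1 and GMNN), 2 fell and 1 rose at 20 mM, and 6 fell and 1 rose at 40 mM, with medians of -0.06 and -0.31. Of the 11 CMG helicase genes, 8 fell at 20 mM and 9 at 40 mM, with medians of -0.29 and -0.65. Of the 9 polymerase and primase genes, 3 fell at 20 mM and 8 at 40 mM, with medians of -0.12 and -0.41. Their 20 mM calls, of POLA2, POLD1 and POLE, were each lost in alternatives given below. Of the 6 genes of the clamp and its loader, 3 fell at 20 mM and 4 at 40 mM, with medians of -0.15 and -0.32. The CMG genes had the most negative median of the 4 groups at both doses, a description of these lists that was not tested. This order depends on counting MCM2-7, which licensing loads, among the CMG genes. CDC45 and GINS1 to GINS4 by themselves had medians of -0.04 at 20 mM and -0.34 at 40 mM. With MCM2-7 counted in licensing, the licensing medians were -0.20 and -0.48.

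In the loaded helicase all 6 MCM2-7 subunits fell in each of the 3 comparisons. MCM5, a subunit at the gate through which the ring opens, measured 13.5, 12.8 and 13 FPKM without metformin, 8.94, 8.66 and 8.78 at 20 mM, and 7.18, 7.65 and 7.23 at 40 mM. The 3 doses do not overlap, and libraries of 1 dose lie within 1 FPKM of each other. MCM5 fell by 0.86 ± 0.04 at 40 mM (adjusted p = 1.3e-07). MCM6, another subunit of the ring, stood at 24.0, 24.2 and 23.9 FPKM without the drug, 19.5, 19.8 and 17.9 at 20 mM, and 14.7, 15.1 and 13.4 at 40 mM. Here too the doses separate fully. MCM6 fell by 0.34 ± 0.05 at 20 mM (adjusted p = 0.00081) and fell by 0.78 ± 0.05 at 40 mM (adjusted p = 9e-07). MCM2, MCM3, MCM4 and MCM7, at 41.5 to 84.5 FPKM on average at 0 mM the more abundant subunits, fell at both doses, with changes of -0.37 to -0.20 at 20 mM and -0.68 to -0.39 at 40 mM. MCM4 had the smallest fall of the 6 at both doses (-0.20 ± 0.04 and -0.39 ± 0.04).

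The partners that complete the CMG helicase split. GINS2, a subunit of the 4-member GINS complex (ENSG00000131153, chromosome 16), had 13.6, 14.3 and 12.97 FPKM without metformin, 10.04, 9.51 and 9 at 20 mM, and 7.57, 8.06 and 7.08 at 40 mM. Every library of a higher dose lies below every library of a lower one. GINS2 fell by 0.88 ± 0.06 at 40 mM (adjusted p = 1.3e-06). CDC45, which ties GINS to the ring, measured 11.8, 13.2 and 11.8 FPKM, then 9.55, 10.5 and 9.97, then 7.41, 8.17 and 7.82 at the 3 doses in order. It fell by 0.29 ± 0.06 at 20 mM (adjusted p = 0.0055) and fell by 0.69 ± 0.06 at 40 mM (adjusted p = 7.5e-06), again without overlap. GINS3, from the same complex, measured 4.13, 4.64 and 4.62 FPKM without metformin, 4.29, 4.57 and 4.66 at 20 mM, and 4.45, 4.93 and 4.39 at 40 mM. Its libraries overlap at all doses and it was not called (0.01 ± 0.07 at 40 mM, adjusted p = 0.94). GINS4 stood at 4.64, 4.54 and 4.70 FPKM without metformin, 4.40, 4.77 and 4.37 at 20 mM, and 4.03, 4.74 and 3.78 at 40 mM. GINS4 was not called at 40 mM (-0.18 ± 0.08, adjusted p = 0.076), but was called lower without replicate 2 of 40 mM, its highest library of that dose (-0.27, adjusted p = 0.0073). The FPKM ratio of GINS2 to GINS3 was 3.29, 3.07 and 2.81 without metformin, 2.34, 2.08 and 1.93 at 20 mM, and 1.70, 1.63 and 1.61 at 40 mM, lower in every treated library than in any untreated one. GINS1, the remaining subunit, was called only at the higher dose and is described with the dose steps.

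Within the origin recognition complex, members went both ways. ORC3 (ENSG00000135336, chromosome 6), a core subunit, measured 5.53, 4.66 and 5.55 FPKM without metformin, 4.61, 4.81 and 4.99 at 20 mM, and 2.001, 2.74 and 2.63 at 40 mM. The 20 and 0 mM libraries overlap, and all 3 of 40 mM lie below both. ORC3 was not called at 20 mM (-0.13 ± 0.12, adjusted p = 0.43) and fell by 1.13 ± 0.12 at 40 mM (adjusted p = 1.9e-05), leaving 46.9% of its 0 mM level. ORC1, the subunit that cycles with the cell and recruits the others in G1, stood at 19.6, 18.7 and 19.0 FPKM without metformin, 16.2, 16.1 and 15.5 at 20 mM, and 15.6, 16.1 and 15.1 at 40 mM. ORC1 fell by 0.26 ± 0.04 at 20 mM (adjusted p = 0.0012) and fell by 0.33 ± 0.04 at 40 mM (adjusted p = 8.7e-05), with the 2 treated doses overlapping. ORC5, an ATP-binding subunit, was called at 40 mM alone (-0.31 ± 0.07, adjusted p = 0.0048).

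The other 3 ORC subunits were not called lower at either dose. ORC2 measured 6.74, 6.81 and 6.53 FPKM without metformin, 7.45, 7.69 and 7.92 at 20 mM, and 7.35, 7.60 and 7.03 at 40 mM. Every treated library lies above every 0 mM library, yet the test called ORC2 higher at 20 mM (0.20 ± 0.05, adjusted p = 0.0085) and not at 40 mM (0.10 ± 0.05, adjusted p = 0.095). With total count scaling, limma or without replicate 3 of 40 mM it was also called at 40 mM (0.15, 0.11 and 0.12). ORC6, the smallest and most loosely held subunit, stood at 11.6, 10.6 and 10.6 FPKM without metformin, 11.6, 13.2 and 12.6 at 20 mM, and 13.8, 14.0 and 11.6 at 40 mM. Replicate 3 of 40 mM lies within the 0 mM range and the other 2 libraries of that dose lie above it. ORC6 rose at 40 mM (0.23 ± 0.08, adjusted p = 0.027), a call lost without replicate 2 or 3 of 0 mM (0.20 in both) or replicate 1 or 2 of 40 mM (0.19 and 0.18). ORC4 measured 4.43, 4.07 and 4.35 FPKM without metformin, 4.37, 4.15 and 4.08 at 20 mM, and 4.55, 4.57 and 4.26 at 40 mM. Its doses overlap and it was not called (0.03 ± 0.05 at 40 mM, adjusted p = 0.71). The FPKM ratio of ORC1 to ORC2 went from 2.90, 2.75 and 2.91 without metformin to 2.17, 2.09 and 1.96 at 20 mM and 2.11, 2.12 and 2.15 at 40 mM.

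The loading factors CDT1 and CDC6 changed more at 40 mM than the CDT1 inhibitor GMNN, a difference that was not tested. CDT1, the loading factor that is destroyed once S phase begins, measured 15.99, 15.96 and 16.5 FPKM without metformin, 16.6, 15.6 and 14.5 at 20 mM, and 10.4, 11.6 and 12.8 at 40 mM. The 0 and 20 mM libraries overlap and those of 40 mM lie below all of them. CDT1 was not called at 20 mM (-0.06 ± 0.07, adjusted p = 0.59) and fell by 0.51 ± 0.07 at 40 mM (adjusted p = 0.00016). CDC6, the ATPase that works with it, stood at 21.7, 21.5 and 20.4 FPKM without metformin, 17.9, 17.0 and 17.1 at 20 mM, and 15.1, 16.3 and 15.1 at 40 mM. CDC6 fell at both doses (-0.29 ± 0.05, adjusted p = 0.00095, and -0.48 ± 0.05, adjusted p = 8.6e-06), and the 3 doses do not overlap. GMNN, the inhibitor, measured 18.1, 18.4 and 17.4 FPKM without metformin, 17.2, 17.4 and 17.2 at 20 mM, and 17.5, 16.3 and 15.9 at 40 mM. GMNN was called lower at 40 mM (-0.15 ± 0.05, adjusted p = 0.021) with 1 library overlapping 0 mM, and lost the call with total count scaling (-0.10, adjusted p = 0.11) and without replicate 1 or 2 of 0 mM or replicate 2 of 40 mM (-0.14, -0.14 and -0.13). The FPKM ratio of CDT1 to GMNN was 0.885, 0.870 and 0.952 without metformin, 0.966, 0.896 and 0.843 at 20 mM, and 0.595, 0.713 and 0.803 at 40 mM, where all 3 libraries lie below the rest.

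**Figure D3:**
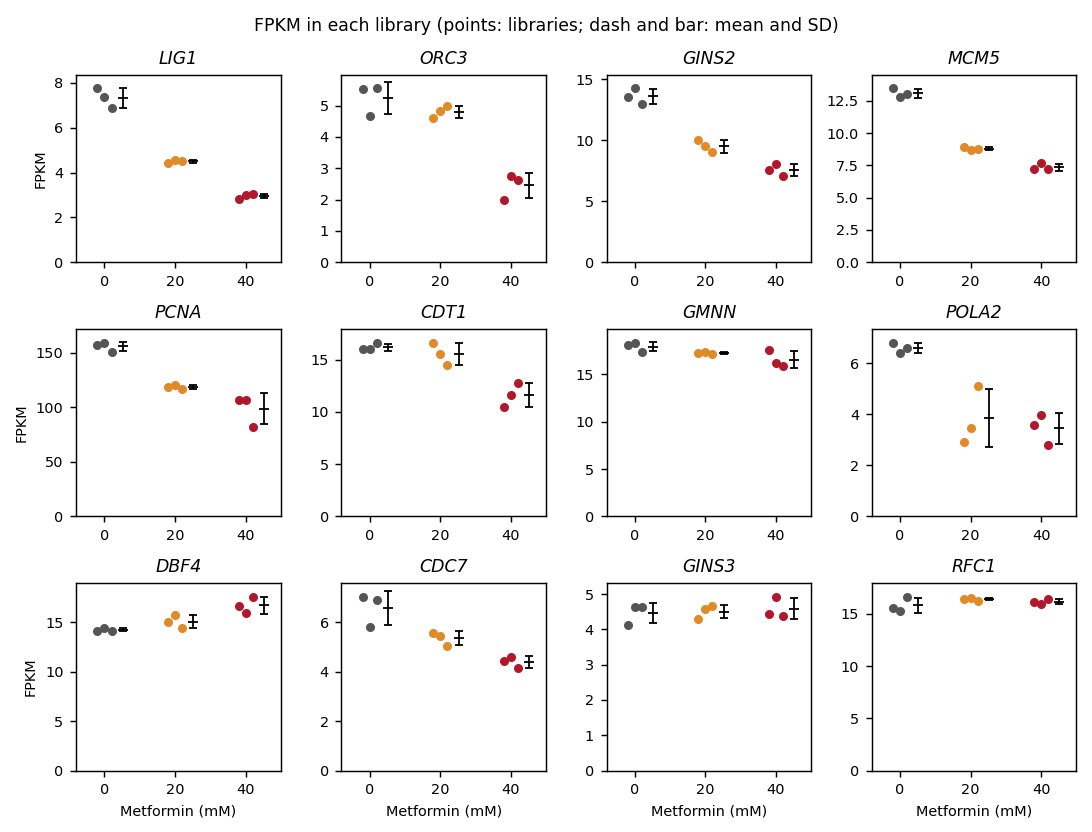
FPKM of 12 replication genes against metformin dose in mM; each point is a library, and the dash with its bar is the mean and SD of 3 libraries. LIG1, GINS2 and MCM5 step down at each dose, ORC3 and CDT1 drop at 40 mM, DBF4 climbs while its kinase CDC7 falls, and GINS3 and RFC1 stay level in the plot.

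The firing kinase and its activator went in opposite directions. CDC7, the catalytic subunit, measured 7.04, 5.81 and 6.90 FPKM without metformin, 5.59, 5.47 and 5.04 at 20 mM, and 4.44, 4.62 and 4.15 at 40 mM. DBF4, the subunit that activates it, measured 14.2, 14.4 and 14.2 FPKM without metformin, 15.1, 15.8 and 14.5 at 20 mM, and 16.6, 15.96 and 17.6 at 40 mM. In both genes the doses separate, downward in CDC7 and upward in DBF4. CDC7 fell by 0.61 ± 0.09 at 40 mM (adjusted p = 0.00013), while its call at 20 mM (-0.30 ± 0.09, adjusted p = 0.022) was lost without replicate 1 or 3 of 0 mM or replicate 2 or 3 of 20 mM (-0.24, -0.27, -0.31 and -0.26). DBF4 was not called at 20 mM (0.08 ± 0.05, adjusted p = 0.25) and rose by 0.20 ± 0.05 at 40 mM (adjusted p = 0.0055). The FPKM ratio of DBF4 to CDC7 went from 2.01, 2.48 and 2.05 without metformin to 2.70, 2.88 and 2.86 at 20 mM and 3.75, 3.46 and 4.25 at 40 mM, with no overlap between doses. MCM10, which helps the helicase start, stood at 10.3, 10.3 and 10.2 FPKM without metformin, 8.85, 9.36 and 8.88 at 20 mM, and 7.93, 8.02 and 7.38 at 40 mM. It fell at both doses (-0.19 ± 0.05, adjusted p = 0.0099, and -0.43 ± 0.05, adjusted p = 1.7e-05).

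Polymerase and primase genes were lower mainly at 40 mM. POLE2, the second subunit of polymerase epsilon and the least abundant member without metformin, measured 3.14, 3.24 and 3.48 FPKM there, 2.69, 2.80 and 2.91 at 20 mM, and 1.88, 1.94 and 1.76 at 40 mM. The doses do not overlap, yet POLE2 was not called at 20 mM (-0.23 ± 0.095, adjusted p = 0.087), while DESeq2 (adjusted p = 0.042) and limma with either pseudocount (adjusted p = 0.035 and 0.031) called it lower there. It fell by 0.84 ± 0.10 at 40 mM (adjusted p = 3e-05). POLE, the catalytic subunit of the same enzyme, fell less at that dose (-0.32 ± 0.05, adjusted p = 0.00018), and the FPKM ratio of POLE2 to POLE went from 0.510, 0.515 and 0.542 at 0 mM to 0.388, 0.375 and 0.324 at 40 mM. Polymerase delta subunits went both ways. POLD4, from the list of other replication genes below, rose at both doses (0.53 ± 0.07, adjusted p = 0.00037, and 0.41 ± 0.07, adjusted p = 0.00054). The members POLD1, POLD2 and POLD3 fell at 40 mM, with changes of -0.41 to -0.37. At 20 mM only POLD1 of these 3 was called (-0.16 ± 0.06, adjusted p = 0.048), a call lost with total count scaling (-0.14) and without replicate 2 of 0 mM (-0.12, adjusted p = 0.18), and also without replicate 1 of 0 mM (-0.15), replicate 2 or 3 of 20 mM (-0.15 and -0.13) or replicate 1 or 2 of 40 mM (-0.16 in both). POLE lost its 20 mM call (-0.17 ± 0.05, adjusted p = 0.021) without replicate 2 or 3 of 0 mM (-0.17 and -0.16) or replicate 2 or 3 of 20 mM (-0.17 and -0.15). POLA1, the catalytic subunit of polymerase alpha, fell by 0.42 ± 0.04 at 40 mM (adjusted p = 1.2e-05). PRIM2, the large primase subunit, measured 3.59, 3.35 and 3.47 FPKM without metformin, 3.52, 3.51 and 3.34 at 20 mM, and 3.19, 3.45 and 3.20 at 40 mM, and was not called (-0.12 ± 0.06 at 40 mM, adjusted p = 0.13).

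POLA2, the accessory subunit of polymerase alpha (ENSG00000014138, chromosome 11), carries a limit of its own. It measured 6.81, 6.41 and 6.59 FPKM without metformin, 2.93, 3.48 and 5.11 at 20 mM, and 3.59, 3.98 and 2.79 at 40 mM. Treated libraries lie below untreated ones but spread widely, and the fit gave -0.78 ± 0.18 at 20 mM (adjusted p = 0.0072) and -0.97 ± 0.18 at 40 mM (adjusted p = 0.00086). A separately listed gene, AP000944 (ENSG00000285816), overlaps POLA2 on the same strand over 43662 bases. Its counts were 1444, 1789 and 1728 without metformin, 3466, 2778 and 1898 at 20 mM, and 2100, 1906 and 2809 at 40 mM. POLA2 had 3207, 2945 and 3046 counts without metformin, 1362, 1563 and 2358 at 20 mM, and 1692, 1875 and 1155 at 40 mM. Within each treated dose the library with the fewest POLA2 counts had the most AP000944 counts. Summed over both genes, an alternative chosen after seeing the data, the locus was at -0.06 ± 0.07 at 20 mM (adjusted p = 0.57) and -0.28 ± 0.07 at 40 mM (adjusted p = 0.0065). From 20 to 40 mM POLA2 alone was not called (-0.19, adjusted p = 0.46), and the summed locus was called lower (-0.22 ± 0.07, adjusted p = 0.039). The sources used here do not say how reads were divided between the 2 gene models, so the size of the POLA2 fall is uncertain.

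Of the clamp and its loader, the clamp and 3 loader subunits fell. PCNA (ENSG00000132646, chromosome 20), the most abundant member, measured 158, 160 and 151 FPKM without metformin, 119, 120 and 117 at 20 mM, and 107, 107 and 82.3 at 40 mM. The 3 doses separate, and the lowest library is replicate 3 of 40 mM, the one that stood apart. PCNA fell by 0.40 ± 0.08 at 20 mM (adjusted p = 0.0046) and fell by 0.69 ± 0.08 at 40 mM (adjusted p = 4.6e-05). Its further fall from 20 to 40 mM (-0.29 ± 0.08, adjusted p = 0.023) was lost without any 1 of the 20 mM libraries (-0.29, -0.28 and -0.31), with limma (-0.27 with either pseudocount), with no filter (-0.31) and with only the 6 libraries compared (-0.29). RFC2, a small loader subunit, stood at 26.3, 26.5 and 27.5 FPKM without metformin, 22.5, 22.9 and 22.3 at 20 mM, and 20.0, 20.6 and 18.8 at 40 mM, and fell by 0.47 ± 0.04 at 40 mM (adjusted p = 8.3e-06). RFC3 fell by 0.46 ± 0.05 and RFC5 fell by 0.18 ± 0.04 at 40 mM. RFC1, the large subunit that opens the clamp, measured 15.6, 15.3 and 16.7 FPKM without metformin, 16.4, 16.5 and 16.3 at 20 mM, and 16.1, 15.9 and 16.4 at 40 mM. Its libraries overlap at all doses and it was not called (0.00 ± 0.04 at 40 mM, adjusted p = 0.94). The FPKM ratio of PCNA to RFC1 went from 10.1, 10.5 and 9.07 without metformin to 7.23, 7.28 and 7.16 at 20 mM and 6.64, 6.74 and 5.01 at 40 mM. RFC4, another small subunit, stood at 11.6, 10.2 and 11.1 FPKM without metformin, 12.1, 11.9 and 13.6 at 20 mM, and 12.9, 13.2 and 10.3 at 40 mM. RFC4 was not called at 40 mM (0.12 ± 0.09, adjusted p = 0.31), and was called higher there without replicate 3 of 40 mM (0.22, adjusted p = 0.024).

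LIG1, the ligase that seals the joined fragments (ENSG00000105486, chromosome 19), had the largest fall of all 48 members. It measured 7.75, 7.37 and 6.89 FPKM without metformin, 4.43, 4.54 and 4.53 at 20 mM, and 2.84, 2.98 and 3.03 at 40 mM. The doses are far apart and the libraries of each dose close together. LIG1 fell by 0.71 ± 0.06 at 20 mM (adjusted p = 1.2e-05) and fell by 1.34 ± 0.06 at 40 mM (adjusted p = 5.3e-08), leaving 40.2% of its 0 mM level. FEN1, the nuclease that trims the flap before LIG1 acts, stood at 80.1, 77.1 and 69.7 FPKM without metformin, 66.5, 69.0 and 64.9 at 20 mM, and 66.7, 63.9 and 52.1 at 40 mM. FEN1 was not called at 20 mM (-0.18 ± 0.08, adjusted p = 0.12) and fell by 0.35 ± 0.08 at 40 mM (adjusted p = 0.0047), where replicate 3 was again the lowest. No treated library reached the lowest untreated one. FADS2 overlaps FEN1 on the same strand and holds 26.4% as many counts, so reads may be divided between them.

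The 3 RPA genes, which coat single-stranded DNA, and the genes grouped as fork protection (CLSPN, TIPIN and WDHD1) fell at 40 mM. Of all tested genes 27.4% were called lower at that dose, and the WDHD1 call was lost in alternatives given below. RPA3, the smallest of the 3 RPA subunits, measured 12.9, 12.96 and 11.6 FPKM without metformin, 10.3, 11.7 and 12 at 20 mM, and 8.74, 8.91 and 6.23 at 40 mM. RPA2, the subunit that checkpoint kinases phosphorylate, measured 39.6, 37.6 and 36.4 FPKM without metformin, 29.8, 32.6 and 30.5 at 20 mM, and 32.4, 30.4 and 27.4 at 40 mM. For RPA3 the 0 and 20 mM libraries overlap and those of 40 mM lie below both, while for RPA2 the 2 treated doses overlap. A test of the second dose step against the first did not call RPA3 (-0.40 ± 0.20, adjusted p = 0.27). RPA3 fell by 0.68 ± 0.12 at 40 mM (adjusted p = 0.00057) and RPA2 fell by 0.37 ± 0.06 (adjusted p = 0.00061). UMAD1 overlaps RPA3 on the opposite strand over 77897 bases with 34.7% as many counts, and the sources used here do not say whether reads were assigned by strand. CLSPN (claspin), which links stalled forks to the checkpoint kinase CHEK1, measured 5.93, 5.65 and 5.94 FPKM without metformin, 3.94, 4.01 and 3.60 at 20 mM, and 3.49, 3.41 and 3.31 at 40 mM. CLSPN fell by 0.60 ± 0.05 at 20 mM (adjusted p = 1.7e-05) and fell by 0.81 ± 0.05 at 40 mM (adjusted p = 6.3e-07), with no overlap between doses. TIPIN, of the fork protection complex, stood at 10.6, 11.3 and 10.99 FPKM without metformin, 9.79, 9.52 and 8.80 at 20 mM, and 9.92, 9.56 and 8.46 at 40 mM, and fell by 0.26 ± 0.07 at 40 mM (adjusted p = 0.0066). Its 2 treated doses overlap and both lie below 0 mM. The 20 mM calls of RPA1 (-0.17 ± 0.05) and TIPIN (-0.23 ± 0.07) were each lost without 5 of the 6 libraries compared, all but replicate 3 of 0 mM for RPA1 (-0.19 to -0.14) and all but replicate 1 of 20 mM for TIPIN (-0.24 to -0.18).

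Behind the fork, the CAF-1 subunits place histones on new DNA. CHAF1B measured 3.65, 4.02 and 4.21 FPKM without metformin, 3.33, 3.84 and 3.35 at 20 mM, and 2.59, 2.96 and 2.35 at 40 mM. CHAF1A measured 20.4, 21.9 and 20.5 FPKM without metformin, 19.2, 19.5 and 18.0 at 20 mM, and 19.1, 18.3 and 18.9 at 40 mM. The smaller change of CHAF1A is already present at 20 mM, where its call was lost without replicate 1 or 2 of 0 mM (-0.16 and -0.12) or replicate 1 or 3 of 20 mM (-0.16 and -0.11), while CHAF1B overlaps 0 mM there and lies below it at 40 mM. At 40 mM CHAF1B fell by 0.62 ± 0.10 (adjusted p = 0.00026) and CHAF1A fell by 0.19 ± 0.05 (adjusted p = 0.0044). The remaining fork gene WDHD1, which couples polymerase alpha to the helicase, was called lower at 40 mM (-0.17 ± 0.06, adjusted p = 0.032) and not with total count scaling (-0.12, adjusted p = 0.12) or without any 1 of the 0 mM libraries (-0.18, -0.16 and -0.17) or replicate 2 of 40 mM (-0.13).

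The dose steps were not alike for all genes. How many of all tested genes share each pattern of calls below was not counted. In the single comparisons 15.2% (20 against 0 mM), 27.4% (40 against 0 mM) and 15.1% (40 against 20 mM) of them were called lower. Of the 48 members, 18 fell in all 3 comparisons, 6 fell at both doses with no call between them (ORC1, POLA2, RPA1, RPA2, TIPIN and CHAF1A), a pattern that for POLA2 does not hold once its counts are summed with AP000944, and 11 were called against 0 mM at 40 mM alone and fell further from 20 mM (ORC3, ORC5, CDT1, GINS1, POLA1, PRIM1, POLD2, POLD3, POLE2, RPA3 and CHAF1B). The call from 20 to 40 mM was lost without replicate 1, 2 or 3 of 20 mM or replicate 1 or 2 of 40 mM for POLE (-0.17 to -0.11) and POLD2 (-0.27 to -0.16), and for both genes also with total count scaling (-0.12 and -0.21), limma, no filter and only the 6 libraries compared. It was lost without replicate 1 or 3 of 20 mM or replicate 1 or 3 of 40 mM for ORC5 (-0.26 to -0.20), without replicate 1 or 2 of 20 mM for CDC7 (-0.29 and -0.30) and without replicate 2 of 20 mM for CLSPN (-0.18). Over the 36 members whose change at 40 mM was above 0.2 in size, the share of that change already present at 20 mM ran from -10.6% to 85.2%, with a median of 52.2%. A test of the second step against the first called 5 members, 3 with a steeper fall in the second step and 2 with a steeper fall in the first, where 4.11% and 2.73% of all tested genes were called in these directions.

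PRIM1, the catalytic primase subunit, was called in the most alternatives of the 5. It measured 12.4, 12.7 and 12.7 FPKM without metformin, 12.96, 12.4 and 13.02 at 20 mM, and 8.17, 8.91 and 8.97 at 40 mM. The 0 and 20 mM libraries overlap and the 40 mM libraries lie well below both. Its second step exceeded the first by -0.61 ± 0.09 (adjusted p = 0.0034), called in all 17 alternatives that gave this test. NACA, which overlaps PRIM1 over 333 bases on the same strand and holds 2206% of its counts, fell by 0.30 at 40 mM (adjusted p = 0.0011) and was not called at 20 mM (-0.08, adjusted p = 0.3), and its part in the PRIM1 values was not tested. GINS1 had 10.7, 10.7 and 9.75 FPKM without metformin, 10.8, 10.6 and 10.6 at 20 mM, and 8.56, 8.83 and 7.70 at 40 mM, the same shape, and differed by -0.42 ± 0.10 (adjusted p = 0.033). ORC3 differed by -0.87 ± 0.20 (adjusted p = 0.029). In the other direction CLSPN differed by 0.40 ± 0.09 (adjusted p = 0.027) and MCM5 by 0.29 ± 0.08 (adjusted p = 0.045), both with the larger part of their fall at 20 mM. Of the same 17 alternatives ORC3 was called in 11, GINS1 and CLSPN in 9 each and MCM5 in 7, and PRIM1 and GINS1 were singled out after their values were seen. Without replicate 1, 2 or 3 of 20 mM, which enter both steps, only PRIM1 was called, and without replicate 3 of 40 mM 9 members were.

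**Figure D4:**
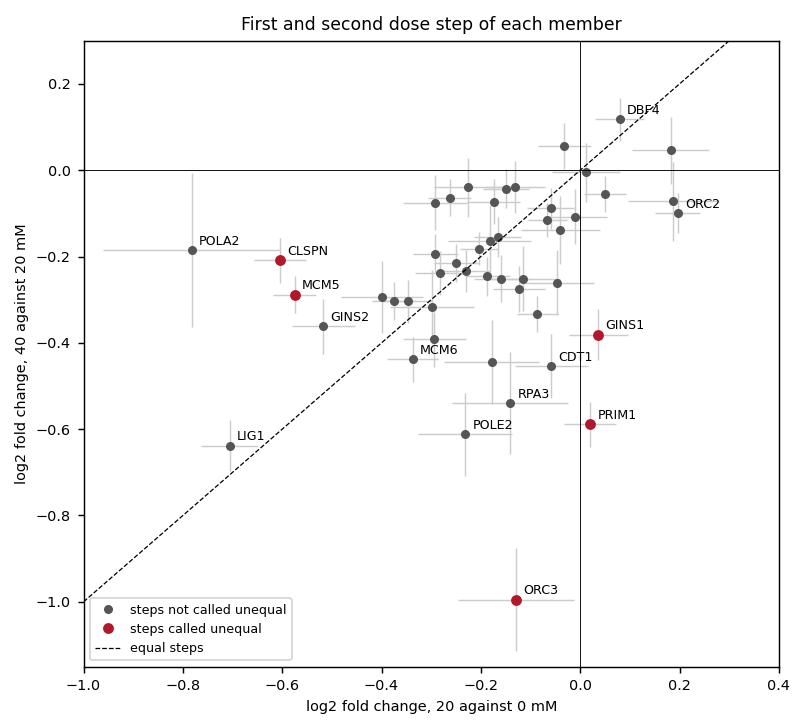
Each point is a replication gene, with the log2 fold change from 0 to 20 mM on the horizontal axis, that from 20 to 40 mM on the vertical axis, bars of 1 SE and the dashed line where both steps are equal. PRIM1 and GINS1 (red, 0.02 and 0.04 on the first step) and ORC3 (red, -0.13) lie below the line, and CLSPN and MCM5 (red) lie above it.

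E2F letters were common in the promoters of the members. RefSeq windows of 300 bases, from 250 before to 50 after the start, were used only for symbols with a single such window. Members and tested genes with more than 1 window, or with none, were left out. The 33 members kept, of 48, were searched on both strands for TTTCCCGC, TTTGGCGC, TTTGCCGC and TTTCGCGC. Of these 33, 16 (48.5%) held a match, against 5.92% of 6351 tested genes with a single window and 3.31% of all 35116 windows. All windows used for MCM2-7 (3 of 3), the CMG partners (3 of 3) and the loaders CDC6 and CDT1 (2 of 2) had a match. So had 4 of 6 polymerase and primase genes, 1 of 5 ORC genes (ORC3) and 1 of 5 clamp and loader genes (RFC3). MCM4, MCM5, MCM7, CDC45 and PCNA were among the members left out. MCM6 held 4 matches, and MCM2 and MCM3 held 2 each.

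The median change at 40 mM was -0.60 over the 16 members with an E2F match and -0.25 over the 17 without, and 93.8% against 70.6% of them were called lower. Over all tested genes with a single window the same medians were -0.09 and -0.01, and 38.3% against 30.2% were called lower. The 16 members with a match include POLA2 at -0.97, an uncertain size, since its counts summed with those of AP000944 gave -0.28. GINS3, with a match at its RefSeq start and a change of 0.01, and CHAF1B, with none and a change of -0.62, are cases where the letters and the change did not go together. For GINS3 that start lies inside the gene as listed in the expression data, away from its listed start. The NF-Y box CCAAT was in 57.6% of the member windows, against 39.2% of tested genes and 34.6% of all windows, with medians of -0.37 with it and -0.46 without. The CHR element TTTGAA, known from promoters of G2 and M phase genes, was found in 1 member window, that of DBF4 (3.03%, against 9.09% of tested genes and 15.2% of all windows). These are descriptions of letters in a window, and no binding was measured.

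**Figure D5:**
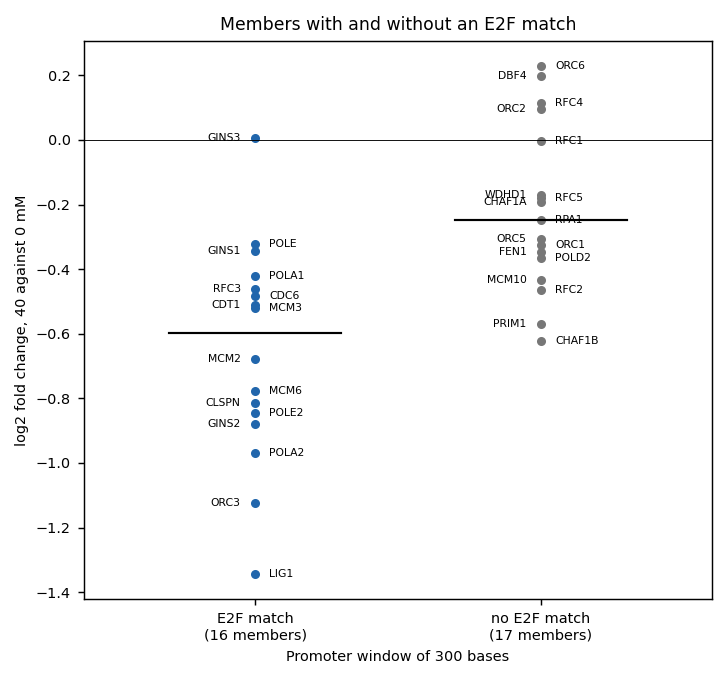
Points are replication genes with a single RefSeq promoter window, split by whether it holds an E2F match. The vertical axis is the log2 fold change at 40 against 0 mM and the black lines are medians. The 16 genes with a match have a median of -0.60 and the 17 without a median of -0.25, with wide overlap. Those with a match include POLA2, whose size of fall is uncertain.

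Other genes of the replication pathway moved less uniformly. Of 44 listed, 43 were tested, and 22 fell and 10 rose at 40 mM, with a median of -0.12, where 27.4% of all tested genes were called lower and 28.8% higher. The FACT subunit SUPT16H, which opens chromatin ahead of the fork, fell by 0.72 ± 0.04 (adjusted p = 1.1e-07), the PCNA-binding protein PCLAF fell by 0.72 ± 0.11 (adjusted p = 0.0002) and CHTF8, of the alternative clamp loader, fell by 0.81 ± 0.13 (adjusted p = 0.00043). At 20 mM 15 of the 43 fell and 5 rose, where the shares of all tested genes were 15.2% and 16.3%. With total count scaling 17 fell and 14 rose at 40 mM, and without replicate 3 of 40 mM 20 fell and 15 rose at that dose and 19 fell and 7 rose at 20 mM.

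Genes of mitosis give the state of the other end of the cycle. Of 16, 3 fell and 2 rose at 20 mM, near the shares of all tested genes (15.2% lower and 16.3% higher). The median at that dose was -0.01, and 0.0018 with total count scaling. At 40 mM 10 fell and 1 rose, with a median of -0.21, where 27.4% of all tested genes were called lower and 28.8% higher. Without replicate 3 of 40 mM 5 fell and 2 rose at 20 mM and 12 fell and 1 rose at 40 mM, and at 40 mM total count scaling and limma each gave 9 lower and 3 higher. The anaphase activator CDC20 fell by 0.55 ± 0.04 at 40 mM (adjusted p = 2e-06), the cyclin CCNB1 fell by 0.48 ± 0.06 (adjusted p = 7e-05) and the kinase PLK1 fell by 0.44 ± 0.07 (adjusted p = 0.00036). Their summed FPKM ran from 938.0 to 961.9 at 0 mM, 888.9 to 902.7 at 20 mM and 794.4 to 824.5 at 40 mM. The summed FPKM of the 48 replication genes ran from 975.7 to 1007 at 0 mM, 838.0 to 858.1 at 20 mM and 694.5 to 771.3 at 40 mM. Both sums are lower at each higher dose without overlap, and the part that the number of cycling cells has in the results was not tested.

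Abundant and scarce members did not sort by size of change: the mean FPKM of the 48 members ran from 3.29 (POLE2) to 156 (PCNA) with a median of 12.5, and across members its log2 had a Pearson r of -0.06 and a Spearman rho of -0.10 with the change at 40 mM, a description over 48 genes measured in the same libraries. Genes that overlap members on the same strand with at least 10% as many counts were AP000944 and FADS2, given above, NACA at PRIM1 (333 bases) and MORC3 at CHAF1B (757 bases). On the opposite strand and at the same level they were UMAD1 at RPA3, EEF1B2P3 at POLA1 (678 bases), ACVR2A at ORC4 (431), SMYD4 at RPA1 (201), SLC25A40 at DBF4 (145), EIF4A2 at RFC4 (18) and GSE1 at GINS2 (7). For these members the division of reads is uncertain.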

How the data were processed

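RNA from A375 cells under 3 metformin doses was extracted with TRIzol, selected with oligo(dT), made into strand-specific libraries (dUTP with UDG) and sequenced in pairs on a NovaSeq, per the labels' protocols. The expression table deposited by the authors holds both read counts and FPKM values for all genes and 9 libraries. StringTie 2.1.6 is named in the submitters' processing notes without its role. Aligner, genome build, annotation, counting strand and filters: not given in the sources used here.

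In R 4.3.3, counts were tested with edgeR 4.0.16 (TMM scaling, quasi-likelihood test, Benjamini-Hochberg adjustment, threshold 0.05) over 12394 genes with a mean of at least 1 FPKM, which hold 98.7% of counts, in 1 fit of all 9 libraries; SE is the size of the fold change over the root of F. FPKM served for levels, ratios and limma. The scripts were tested on simulated data. Alternatives were no filter, a filter at 5 FPKM, median-of-ratios scaling, total count scaling, DESeq2 1.42.0, limma 3.58.1 on log2(FPKM + 1) and log2(FPKM + 0.1), only the 6 libraries compared, a replicate block, leaving out each library, and POLA2 summed with its neighbour. Values in every library are given, by rule, for, per role, the 2 with the largest called change at 40 mM, every member called higher or not called there, PCNA, CDT1, GMNN, and, outside the rule, PRIM1 and GINS1, chosen after their values were seen. The 3 largest called changes of the other replication and mitotic lists are named, as is POLD4 outside that rule. The remaining members are given by their changes alone. The members and lists were chosen with earlier results of these data known. Promoter windows were matched to RefSeq (GRCh38.p14) by symbol, and symbols with more than 1 window were left out.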

Additional observations from a re-analysis of the deposited data

How the results depend on the processing

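All members called lower or higher at 40 against 0 mM kept their direction in every alternative run. Genes called over all tested numbered 3911, 6962 and 3637 (20 against 0, 40 against 0 and 40 against 20 mM), and 2517, 4245 and 2367 with the filter at 5 FPKM, which tests fewer genes. Leaving out 1 library gave 2731 to 4966, 6049 to 7135 and 2408 to 4065. Members called lower ran from 18 to 26, 37 to 39 and 24 to 29 when 1 library was left out, and members called higher from 1 to 3, 1 to 4 and 0 to 0. Members with unequal steps ran from 1 to 9. Members called higher were 2 at 20 mM with only the 6 libraries compared, 1 at 40 mM with no filter, and 1 from 20 to 40 mM (DBF4) under both limma fits and total count scaling. Unequal steps were called in 8 members by DESeq2 and 1 with no filter. Total count scaling moved the split of calls from 20 to 40 mM to 1447 lower and 2309 higher, from 1867 and 1770, and limma to 1416 and 2112 (pseudocount 1) or 1418 and 2076 (0.1).

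Deviations of same-numbered libraries of different doses had correlations from -0.10 to 0.19, against -0.19 to 0.13 for libraries of different numbers. Whether a replicate number stands for a shared batch was not tested. With the replicate block 4245, 7215 and 3982 genes were called, with 25, 39 and 31 members lower, 1, 2 and 0 higher and 4 with unequal steps.

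Signs reversed only in results that were not called, and the cause was not tested. These were PRIM2 at 20 mM (0.0057, total count scaling), GINS3 at 40 mM (-0.0069, no filter) and from 20 to 40 mM (0.0246 and 0.0208 under limma, 0.0313 with total count scaling), and RFC1 at 40 mM (0.0201 with the filter at 5 FPKM, 0.0305 and 0.0288 under limma, 0.0477 with total count scaling). Leaving out 1 library gave, at 20 mM, -0.0084 to 0.0671 for GINS1, -0.0347 to 0.0447 for GINS3, -0.0722 to 0.0004 for ORC4, -0.104 to 0.0246 for ORC5 and -0.0387 to 0.0221 for PRIM2. At 40 mM it gave -0.0453 to 0.0337 for GINS3, -0.015 to 0.0575 for ORC4 and -0.0343 to 0.0314 for RFC1. From 20 to 40 mM it gave -0.0567 to 0.0223 for GINS3, -0.0037 to 0.127 for ORC6, -0.347 to 0.0743 for POLA2, -0.131 to 0.0276 for RFC4, -0.0866 to 0.0228 for TIPIN and -0.08 to 0.0016 for WDHD1. With 3 libraries per dose, changes smaller than those called may go undetected.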
